A study of Mus musculus with 12 samples.

Results

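RAW264.7 cells, a line of mouse macrophages, were compared after culture in 2 tumour-cell-conditioned media: medium from JMJD6-knockout PyMT-41C cells (KO medium, replicates 1, 2 and 3) and medium from SCR PyMT-41C cells to which CSH had been added (CSH medium, replicates 1, 2 and 4). CSH is named in the labels as a blocker of the ANXA-1 receptor, ANXA-1 being annexin A1. These 6 arrays are 3 per group of the 12 arrays of the series; the other arrays are SCR medium without CSH (replicates 1, 3 and 4) and normal medium (replicates 2, 3 and 4). All cultures lasted 24 h in RPMI with 10% serum, and conditioned medium made up 50% of the volume where it was used. RNA was measured with Affymetrix arrays, 1 array per sample.

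The comparison asks how a medium altered at its source, by loss of JMJD6 from the secreting cells, differs from a medium whose annexin A1 signal is blocked at the receiving cell. It changes the genotype of the source cells and the presence of CSH at once, and KO medium with CSH was not analysed here, so the contributions of genotype and CSH cannot be told apart within it. The labels do not say how many knockout or SCR clones there were, name no vehicle for CSH, and do not say that replicates were separate cultures. The p-values therefore rest on a spread between arrays that may be technical only.

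JMJD6 is a JmjC-domain oxygenase best known as a nuclear lysyl hydroxylase. Annexin A1 is a calcium-dependent phospholipid-binding protein that leaves cells and acts on myeloid cells through formyl peptide receptors, where it is known for dampening inflammation and shaping macrophage activation. Macrophages exposed to tumour-conditioned medium typically take up a mixed program of protease receptors, arginine metabolism, growth factors and chemokines, and several of those genes are read below.

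The label macrophage was checked first. Of 15 macrophage markers named on the array, 14 lay above the array median in all of the 6 arrays, with a summed log2 signal of 179.8 to 181.3 in KO medium and 179.8 to 183.3 in CSH medium. Of 15 epithelial markers, which the cells that made the medium could bring, 2 lay above the array median, and their summed signal was 74.9 to 75 in KO medium and 74.8 to 75.3 in CSH medium. Jmjd6 itself, in the receiving cells, read 9.98, 10.12 and 9.54 in KO medium and 9.78, 9.67 and 9.67 in CSH medium; since the gene was removed only from the cells that made the medium, this checks no label. Array medians ran from 5.4 to 5.52. Along the second principal component, which held 5.7% of the variance of all 12 arrays, KO medium lay at 6.8 to 9.7 and CSH medium at -13.4 to -5.2.

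Of 18119 genes tested with limma, 345 differed between KO and CSH medium at a Benjamini-Hochberg adjusted p below 0.05, which is 1.9 percent of the genes and is what "called" means below. Signal was higher in KO medium for 219 genes (1.21 percent) and lower for 126 (0.695 percent). The differences were small: 72 of the 345 reached 1.5-fold, 56 of them higher and 16 lower in KO medium, and 13 reached 2-fold. In none of the 345 did the 3 KO arrays overlap the 3 CSH arrays, but these genes were selected on the same arrays. Over all genes tested the 3 KO arrays all lay above the 3 CSH arrays in 9.72 percent and all below in 12.1 percent. The median difference over all genes tested was -0.017, so negative differences were the more common. When each array was centred on its median, 154 genes were called and 77.9% of them were higher in KO medium, against 63.5% of the 345, with 120 higher and 34 lower. The count fell to 107 without CSH replicate 2, 124 without KO replicate 1, 153 without KO replicate 3, 157 without KO replicate 2 and 201 without CSH replicate 4. In bulk RNA, fewer cells that express a gene and less of its RNA per cell cannot be told apart.

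**Figure D1:**
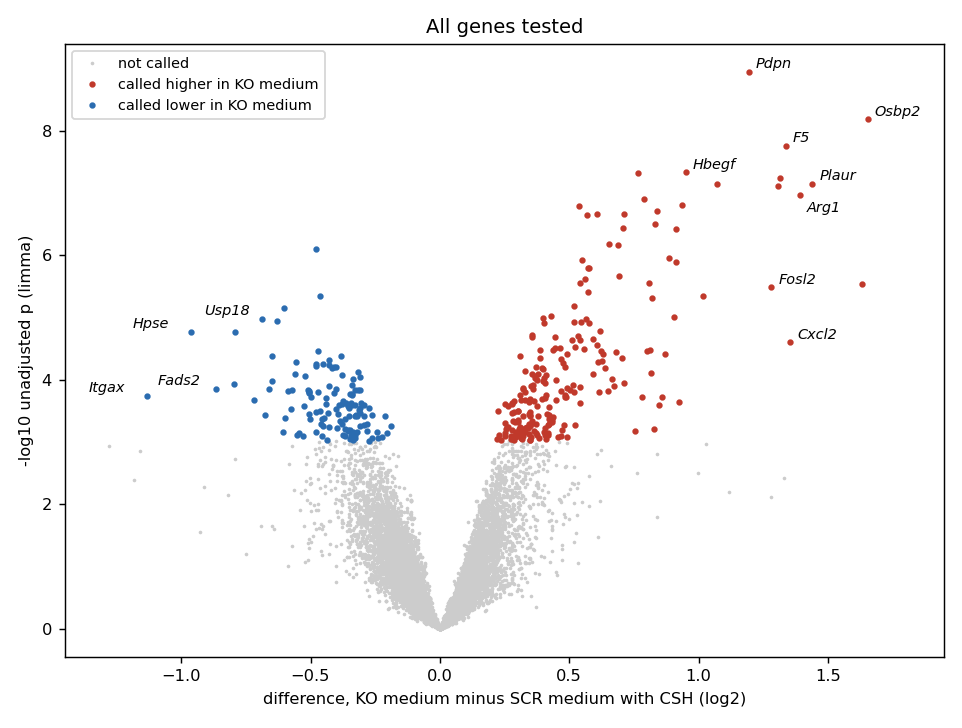
Each point is 1 of 18119 genes, placed by its log2 difference between KO medium and CSH medium and by the -log10 of its unadjusted limma p; red and blue points are the 219 genes called higher and the 126 called lower in KO medium. The higher calls reach 1.65 and the lower ones -1.13 on the log2 scale, and the 12 labelled genes are among those described in the text.

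The largest differences were higher in KO medium. Osbp2, an oxysterol-binding protein of the family that moves sterols between membranes (chr11:3703731-3863999, in GRCm38.p6 as for all positions here), read 11.46, 11.19 and 11.56 on the log2 scale in KO medium and 9.86, 9.49 and 9.90 in CSH medium. Its signal was thus 3.15-fold higher in KO medium, a log2 difference of 1.65 (SE 0.12, adjusted p = 5.89e-05). The most precisely separated gene was Pdpn, podoplanin, a mucin-like ligand of the platelet receptor CLEC-2 (chr4:143267409-143299564): 9.02, 9.12 and 9.11 in KO medium against 7.94, 7.93 and 7.80 in CSH medium (difference 1.19, SE 0.075, adjusted p = 2.03e-05). For both genes the 3 KO arrays stood well clear of every CSH array.

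Genes of plasminogen activation and coagulation were among the leaders. Plaur, the urokinase receptor that gathers plasminogen activation at the cell surface (chr7:24460937-24475970), read 13.86, 13.89 and 14.21 in KO medium and 12.64, 12.76 and 12.24 in CSH medium, a difference of 1.44 (SE 0.129, adjusted p = 0.000152). F5, coagulation factor V (chr1:164151835-164220277), read 11.22, 11.11 and 11.45 against 9.87, 9.92 and 9.98 (difference 1.34, SE 0.106, adjusted p = 0.000105). Of the 11 tested members of the plasminogen and coagulation list, 3 were called higher and none lower, against 1.21 and 0.695 percent of all genes tested. The median difference was 0.12, against -0.017 over all genes tested. The third member was Anxa2, annexin A2, a co-receptor for plasminogen, at 13.42, 13.48 and 13.33 against 13.10, 12.92 and 13.12 (difference 0.36, adjusted p = 0.0225 by limma). The Anxa2 call was lost without KO replicate 1, KO replicate 2 or CSH replicate 2, while those of Plaur and F5 held in each of the 22 alternatives.

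Arginine and polyamine metabolism showed 4 called members of 12, all higher in KO medium, against 1.21 percent called higher of all genes tested. Arg1, arginase, which turns arginine into ornithine and is the classic marker of alternative macrophage activation (chr10:24915207-24927470), read 7.79, 8.08 and 8.14 in KO medium and 6.45, 6.76 and 6.63 in CSH medium, a 2.62-fold difference (log2 1.39, SE 0.129, adjusted p = 0.000195). Odc1, ornithine decarboxylase, the next step toward polyamines, read 13.87, 13.49 and 14.21 against 13.01, 12.96 and 12.99 (difference 0.87, SE 0.14, adjusted p = 0.00912); the call was lost in a fit of the 6 arrays alone (adjusted p = 0.0546, limma). Smox, spermine oxidase, differed by 0.40 and Azin1, an inhibitor of the antizyme that destroys ornithine decarboxylase, by 0.29 (adjusted p = 0.00443 and 0.0463, limma). The Azin1 call was lost when any 1 KO array was left out, with an adjusted p of up to 0.165. The mean log2 signal of the 12 genes was 9.76 to 9.79 in the KO arrays and 9.49 to 9.57 in the CSH arrays.

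The cAMP and CREB feedback list had the highest median of all lists read, 0.29 over 15 tested genes. All 15 differences were positive and 4 genes were called higher, against 1.21 percent of all genes tested. In 10 of the 15 the 3 KO arrays all lay above the 3 CSH arrays, which was so for 9.72 percent of all genes tested. Fosl2, a Fos-family partner of Jun, read 12.10, 11.93 and 12.50 against 11.05, 10.64 and 11 (difference 1.28, SE 0.162, adjusted p = 0.00173). Dusp1, a phosphatase that switches off MAP kinases, differed by 0.83 (SE 0.085, adjusted p = 0.000316) and Crem, a cAMP-responsive transcription factor, by 0.81 (SE 0.1, adjusted p = 0.00158). Pde4b, a phosphodiesterase that degrades cAMP, read 6.49, 6.45 and 6.74 against 5.98, 6.09 and 6.05 (difference 0.52, adjusted p = 0.00443, limma). The 4 calls held without KO replicate 3 and without CSH replicate 2.

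AP-1 is the dimer of Fos and Jun family proteins, and Fosl2 is one of its parts, so the sequences before the starts of the called genes were searched. A start is a RefSeq transcript start on GRCm38.p6, and the 250 bases before each were searched on both strands for AP-1 (TGAGTCA or TGACTCA), CRE (TGACGTCA), the short CRE core (TGACG), ISRE core (AAANNGAAA), SRE-1 (TCACCCCAC) and NF-kB (GGACTTTCC or GGAATTTCC). A CRE holds the short core, so those matches overlap. An AP-1 match stood before 20 of 155 genes called higher that had a promoter searched (12.9%). It stood before 2 of 87 such genes called lower (2.3%) and 442 of 10445 such genes tested (4.2%). Of the 32851 promoters searched 4.5% held one. With 1 array left out the share ran from 11% to 15.6% for the higher genes and from 0% (without KO replicate 1, KO replicate 3 or CSH replicate 1) to 5.9% (without CSH replicate 2) for the lower genes. The higher genes had 1.4 starts per gene and the lower genes 1.16, against 1.25 for all tested genes. More bases were thus searched per gene for the higher genes and fewer for the lower. CRE stood before 2.6% of the higher genes, 1.1% of the lower and 2.8% of all, the short core before 29.0%, 24.1% and 28.3%, and ISRE core before 12.3%, 12.6% and 8.9%. SRE-1 and NF-kB were each below 3% in every set.

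Matches before named genes are given so that the letters can be read beside the values, with the match in capitals, 5′ to 3′ on the gene's strand. Lif, Anxa2 and C3ar1, called higher in KO medium by 0.71, 0.36 and 0.37, hold an AP-1 match, and so does Cd68, called lower (-0.19). Dusp1 is shown for its CRE and Cxcl2 for its NF-kB match. Plaur, Tnfrsf9 and Itgax also hold an AP-1 match, but before a start that lies within the span of the annotated gene, so their letters are not shown. The stretches are Lif at chr11:4257318-4257382 (+), Anxa2 at chr9:69453552-69453630 (+), C3ar1 at chr6:122856158-122856215 (-), Cd68 at chr11:69666171-69666230 (-), Dusp1 at chr17:26508572-26508651 (-) and Cxcl2 at chr5:90903767-90903847 (+), all upstream of the gene on GRCm38.p6. The match begins 228, 95, 22, 24, 143 and 96 bases before the start, in that order.
Lif: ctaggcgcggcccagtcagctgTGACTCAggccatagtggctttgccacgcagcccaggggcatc
Anxa2: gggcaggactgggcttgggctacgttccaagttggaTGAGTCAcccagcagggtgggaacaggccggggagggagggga
C3ar1: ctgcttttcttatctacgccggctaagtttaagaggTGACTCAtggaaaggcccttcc
Cd68: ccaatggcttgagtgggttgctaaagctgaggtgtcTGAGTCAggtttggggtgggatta
Dusp1: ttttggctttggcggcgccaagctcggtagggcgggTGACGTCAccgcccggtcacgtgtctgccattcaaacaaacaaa
Cxcl2: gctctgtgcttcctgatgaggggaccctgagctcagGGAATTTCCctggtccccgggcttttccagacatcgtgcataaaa
A match says only that these letters occur in the stretch; binding was not measured.

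KO replicate 3 stood above its group for genes of the immediate early class. Fos read 9.58 there and 7.65 and 7.48 in the other KO arrays, against 6.83 to 7.15 in CSH medium, and Dusp5 read 9.63 there and 7.71 and 7.64 in the others, against 6.96 to 7.03. Neither gene was called (differences 1.28 and 1.33, adjusted p = 0.146 and 0.103, limma), although all 3 KO arrays exceeded all 3 CSH arrays. Without KO replicate 3 the Dusp5 difference was smaller, 0.678, and was called (adjusted p = 0.000923, limma), and that of Fos was 0.608 and was not (adjusted p = 0.0897). Il6, the interleukin-6 gene, behaved similarly, at 6.88, 6.25 and 8.0 in KO medium and 6.11, 5.41 and 6.26 in CSH medium (difference 1.12, adjusted p = 0.133). Its lowest KO array, at 6.25, lay within the CSH range; Il6 was called without KO replicate 2 (1.51, adjusted p = 0.0398, limma) and not without KO replicate 3 (0.638, adjusted p = 0.25). The mean of the 17 early response factors was 7.41, 7.41 and 7.76 in the KO arrays and 7.29 to 7.31 in the CSH arrays. What sets KO replicate 3 apart was not tested.

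**Figure D2:**
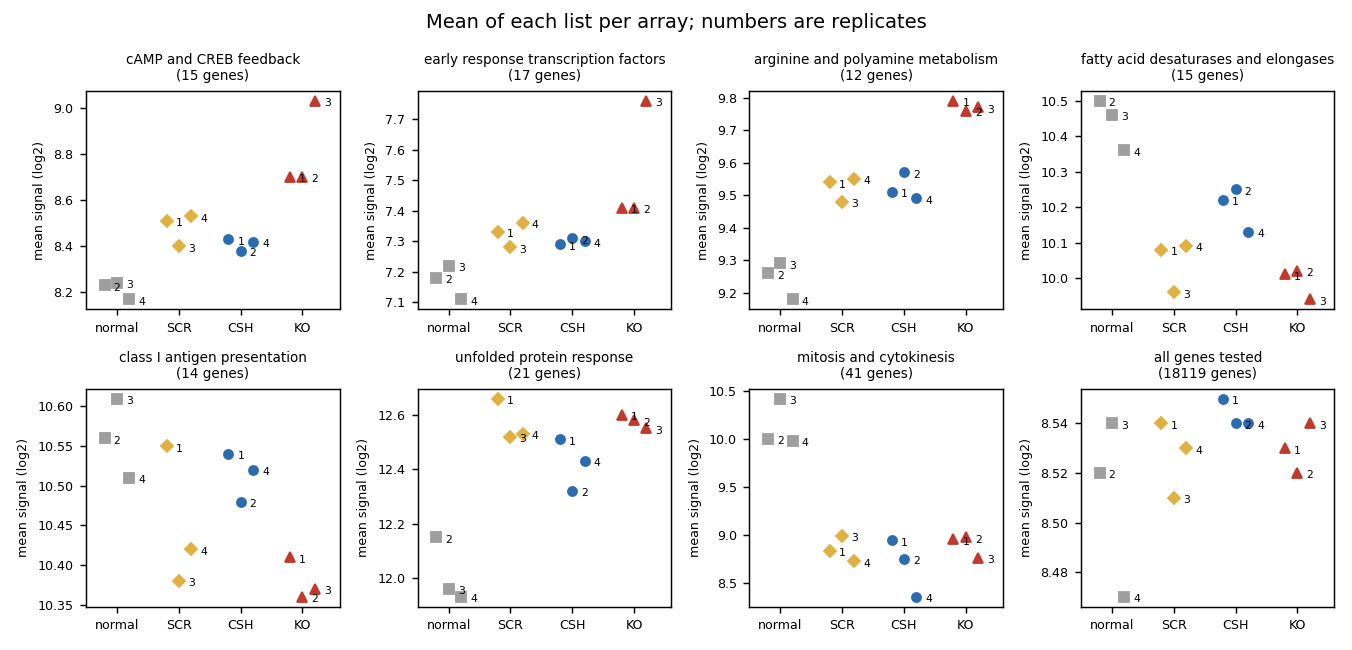
Mean log2 signal of the tested members of 7 gene lists, and of all genes tested, in each of the 12 arrays, by medium; the digit beside a point is the replicate number. KO replicate 3 lies at 9.03 for cAMP and CREB feedback and at 7.76 for early response factors, above the other KO arrays at 8.70 and 7.41, while mitosis and cytokinesis spreads from 8.35 to 8.94 within CSH medium.

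Among the early response factors, Btg1 and Myc were called higher (2 of 17 tested), against 1.21 percent of all genes tested. Btg1, an antiproliferative co-regulator, read 10.44, 10.48 and 10.59 against 9.26, 9.33 and 9.0 (difference 1.31, SE 0.117, adjusted p = 0.000152). Myc, a growth-promoting transcription factor, read 8.30, 8.24 and 8.62 against 7.98, 7.86 and 7.86 (difference 0.49, adjusted p = 0.0209, limma), and lost its call without KO replicate 3, CSH replicate 2 or CSH replicate 4. Klf6, a zinc-finger factor, did not pass (0.39, adjusted p = 0.0556) but was called in 5 alternatives, 1 of them without KO replicate 2. MAP kinase feedback added Dusp16 (0.57, adjusted p = 0.00202, limma) and Spred2, an inhibitor of Raf signalling (0.35, adjusted p = 0.0461), so 3 of 13 were called with Dusp1. Spred2 lost its call without any 1 of the KO or CSH arrays.

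Of 12 tested VEGF and EGF-like growth factor genes 2 were called, both higher, against 1.21 percent called higher of all genes tested. Of the 12 differences 7 were negative. Hbegf, the heparin-binding ligand of the EGF receptor, read 7.27, 7.48 and 7.61 in KO medium and 6.58, 6.54 and 6.39 in CSH medium (difference 0.95, SE 0.082, adjusted p = 0.000152). Vegfa, the main angiogenic growth factor, read 14.48, 14.49 and 14.49 against 13.95, 13.92 and 13.86 (difference 0.58, SE 0.068, adjusted p = 0.00104). The list's median was -0.018, against -0.017 over all genes tested, most of which also had negative differences. Igf1, another growth factor, read 8.80, 8.87 and 8.56 against 9.07, 9.55 and 9.0, a difference of -0.46 that did not pass (adjusted p = 0.124, limma).

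TGF-beta pathway members gave 3 calls of 18, all higher, against 1.21 percent called higher of all genes tested. Pmepa1, a membrane protein that restrains TGF-beta signalling, read 8.0, 7.58 and 8.10 against 6.60, 6.47 and 6.67 (difference 1.31, SE 0.115, adjusted p = 0.000152). Tgm2, a transglutaminase that crosslinks matrix proteins and is also an alternative-activation marker, read 11.13, 11 and 11.36 against 10.21, 10.15 and 9.92 (difference 1.07, SE 0.096, adjusted p = 0.000152). Acvr1, a type I receptor of the family, differed by 0.33 (adjusted p = 0.022, limma) and lost its call after median centring and without any 1 KO array, CSH replicate 2 or CSH replicate 4. The list's median was 0.053.

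Of 14 tested chemokine genes 3 were called, again all higher, against 1.21 percent called higher of all genes tested. Cxcl2, a neutrophil attractant, read 12.18, 12.29 and 13.14 in KO medium and 11.11, 11.25 and 11.19 in CSH medium (difference 1.35, SE 0.209, adjusted p = 0.00735). Ccl2, a monocyte attractant, differed by 0.82 (SE 0.142, adjusted p = 0.0137) and Cxcl14 by 0.62 (SE 0.091, adjusted p = 0.00579). The Ccl2 call was lost with the replicate number as a fixed block (adjusted p = 0.0542, limma). Of 12 cytokine genes, Lif (0.71, adjusted p = 0.000339, limma), Il23a (0.70, adjusted p = 0.00997) and Osm (0.50, adjusted p = 0.0186) were called higher, Lif and Osm belonging to the IL-6 family. Osm lost its call without KO replicate 3, CSH replicate 2 or CSH replicate 4. The receptors Ccr1, at 10.59, 10.69 and 10.85 against 9.83, 10.05 and 9.67 (0.86, adjusted p = 0.0209, limma), and C3ar1 (0.37, adjusted p = 0.0364) were higher too. Neither receptor kept its call without KO replicate 3, and both also lost it without KO replicate 1, KO replicate 2, CSH replicate 1 or CSH replicate 4.

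Scimp, an adaptor for Toll-like receptors, differed by 1.02, Bcar3, an SH2-domain adaptor that binds p130Cas, by 0.94, Tnfrsf9, the co-stimulatory receptor CD137, by 0.91, and Gprc5a, an orphan receptor, by 0.90. These complete the 15 largest higher differences, which kept their call in each of the 22 alternatives run for the named genes. Each of the 15 was likewise called higher when SCR medium was set against normal medium, against 19.3 percent of all genes tested. Of the 15 largest lower differences, 13 were called lower in SCR medium, against 15.8 percent of all genes tested.

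The list of annexin and formyl peptide receptor genes, which the CSH arm addresses, was read in the receiving cells, where only part of it could be tested. Anxa1 read 10.42, 10.5 and 10.52 in KO medium and 10.44, 10.65 and 10.52 in CSH medium, and the ranges overlapped. The difference was -0.057 with a 95% interval of -0.209 to 0.095 (adjusted p = 0.751, limma). Anxa2 alone of 9 tested members was called, against 1.9 percent of all genes tested, and the list's median was 0.027. Fpr1, Fpr2 and Fpr3 were not named on the platform table, and Fpr-rs4 did not lie above the array median in at least 3 arrays. None of these receptors was tested, so the list's median does not cover them.

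Activation markers of both classes gave calls. Of all genes tested, 1.21 percent were called higher and 0.695 percent lower. Of 15 tested classical markers, Il23a, Tlr4 and Ptgs2 were called higher and none lower; Tlr4, the endotoxin receptor, read 12.25, 12.39 and 12.70 against 11.84, 11.76 and 11.91 (0.61, adjusted p = 0.011, limma), a call lost without CSH replicate 2. Ptgs2, the inducible cyclooxygenase, differed by 0.42 (adjusted p = 0.0447), a call lost without any 1 KO or CSH array. Of 15 alternative markers, Arg1, Tgm2, Il4ra and Clec10a were called higher. Il4ra, the interleukin-4 receptor chain, read 10.97, 10.89 and 11.06 against 10.44, 10.18 and 10.22 (0.69, SE 0.084, adjusted p = 0.00135), and Clec10a, a lectin, differed by 0.28 (adjusted p = 0.024, limma) and lost its call without any 1 KO or CSH array. Trem2, a lipid-sensing receptor named here after its values were seen, was the one alternative marker called lower (-0.54, adjusted p = 0.043, limma).

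Other familiar markers were not called. Nos2, inducible nitric oxide synthase, read 8.81, 9.11 and 8.54 against 8.80, 8.76 and 8.62 (0.093, 95% interval -0.241 to 0.428). Tnf differed by -0.137 (-0.492 to 0.219) and the co-stimulatory ligand Cd86 by 0.193 (-0.157 to 0.544). Mmp9, a gelatinase, read 6.47, 6.55 and 6.47 against 6.20, 6.34 and 6.10 (0.28, adjusted p = 0.162, limma). Mrc1, the mannose receptor, lay below the array median filter and was not tested.

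**Figure D3:**
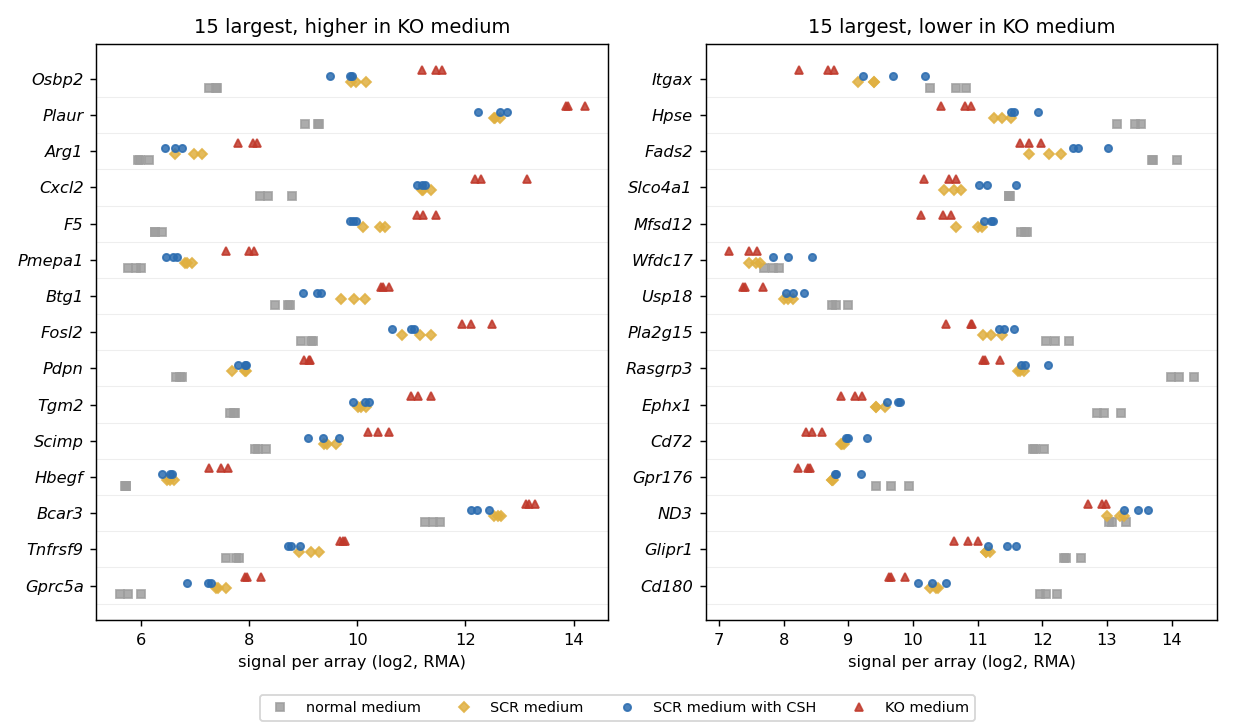
Log2 signal of the 15 largest higher and the 15 largest lower genes in each of the 12 arrays, with marker shape and colour giving the medium. In the left panel the KO arrays lie above the CSH arrays for each gene; in the right panel they lie below, and CSH replicate 2 is often the highest of its group, as for Itgax at 10.18.

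The lower genes were smaller in size and rested more on single arrays. Itgax, the integrin chain CD11c of macrophages and dendritic cells (chr7:128129526-128150657), read 8.69, 8.77 and 8.23 in KO medium and 9.69, 10.18 and 9.22 in CSH medium, a 2.19-fold lower signal (difference -1.13, SE 0.216, adjusted p = 0.0202). The CSH arrays spread over nearly 1 log2 unit, and the Itgax call was lost without KO replicate 1, KO replicate 3, CSH replicate 1 or CSH replicate 2. Hpse, heparanase, which cleaves heparan sulphate in the matrix (chr5:100679484-100719716), read 10.81, 10.90 and 10.43 against 11.57, 11.94 and 11.52 (difference -0.96, SE 0.143, adjusted p = 0.00579). It kept its call in each alternative, as did Mfsd12, a lysosomal transporter (-0.79, adjusted p = 0.00579), Usp18, an interferon-induced protease that removes ISG15 (-0.69, adjusted p = 0.00422), Ephx1, an epoxide hydrolase (-0.65, adjusted p = 0.00959), and Cd72, a lectin-like inhibitory receptor (-0.63, adjusted p = 0.00443), all by limma. The other lower genes of the largest 15 were Slco4a1, Wfdc17, Pla2g15, Rasgrp3, Gpr176, ND3, Glipr1, Cd180 and Fads2, between -0.57 and -0.87; each of them lost its call in 3 or more alternatives. ND3 lost it without KO replicate 1, KO replicate 2, CSH replicate 1 or CSH replicate 4, and the other 8 lost it both without KO replicate 3 and without CSH replicate 2. Gpr176, Glipr1 and Cd180 lost it on median centring.

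Desaturases and elongases of fatty acids had the lowest median of the lists, -0.19 over 15 tested genes. Fads2, the delta-6 desaturase that starts the making of long polyunsaturated fatty acids (chr19:10062765-10101503), read 11.80, 11.98 and 11.66 in KO medium and 12.55, 13.01 and 12.48 in CSH medium (difference -0.87, SE 0.16, adjusted p = 0.0186); a further probe set of the gene gave -0.72. Fads1, the delta-5 desaturase, read 13.02, 12.90 and 12.86 against 13.31, 13.41 and 13.13 (-0.36, adjusted p = 0.0422, limma) and Hacd2, a dehydratase of the elongation cycle, 12.32, 12.22 and 12.33 against 12.55, 12.76 and 12.59 (-0.34, adjusted p = 0.0233). Of the 15 genes, 13 had negative differences and in 9 the KO arrays all lay below the CSH arrays, which was so for 12.1 percent of all genes tested. No member was called without KO replicate 3 or without CSH replicate 2. Cholesterol synthesis followed the same side, with 15 of 17 differences negative, a median of -0.10 and 1 call, Pmvk (-0.33, adjusted p = 0.024, limma); that call was lost on median centring and without any 1 KO array, CSH replicate 2 or CSH replicate 4.

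Calls among lipid genes outside these lists went both ways. Of 26 tested genes of fatty acid synthesis, storage and oxidation, 3 were called higher and 1 lower, against 1.21 and 0.695 percent of all genes tested. Their median difference was -0.073, with 20 differences negative and 6 positive. In 6 the KO arrays all lay below the CSH arrays and in 3 all above, against 12.1 and 9.72 percent of all genes tested. Cd36, a scavenger receptor for fatty acids and oxidised lipoproteins, read 9.88, 9.63 and 9.94 against 8.86, 8.98 and 8.95 (difference 0.89, SE 0.101, adjusted p = 0.000842). Hilpda, a lipid droplet protein (0.56, adjusted p = 0.00874, limma), and Acsl4, an acyl-CoA ligase (0.48, adjusted p = 0.0111), were higher too; Acsl4 lost its call without CSH replicate 2. Cpt1a, the gatekeeper of mitochondrial fatty acid oxidation, was lower (-0.35, adjusted p = 0.0478), a call lost on median centring and without any 1 KO array, CSH replicate 1 or CSH replicate 2. Abca1, which exports cholesterol, was higher (0.52, adjusted p = 0.0376) while Cyp27a1, a sterol hydroxylase, was lower (-0.52, adjusted p = 0.0145) in the list of LXR targets, where 1 of 13 was called higher and 2 lower. Both calls were lost on median centring and without KO replicate 2 or KO replicate 3; Abca1 also lost its call without KO replicate 1, CSH replicate 1 or CSH replicate 4, and Cyp27a1 without CSH replicate 2.

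Calls among interferon and antigen presentation genes were lower in KO medium. Besides Usp18, Bst2, the virion-tethering protein, was called lower (-0.44, adjusted p = 0.0485, limma), making 2 of 26 interferon-stimulated genes. The share called lower over all genes tested was 0.695 percent. Of the 26 differences 19 were negative, but the list's median was only -0.032, against -0.017 over all genes tested. In 5 of the 26 the KO arrays all lay below the CSH arrays and in 1 all above, against 12.1 and 9.72 percent of all genes tested. The Bst2 call was lost on median centring and without any 1 KO or CSH array. Psmb9, an immunoproteasome subunit, was the 1 called gene of 14 in class I presentation (-0.31, adjusted p = 0.0146). Icam1, an adhesion ligand, read 7.91, 8.02 and 7.85 against 8.44, 8.64 and 8.21 (-0.50, adjusted p = 0.0329). Psmb9 and Icam1 also lost their calls on median centring, and without KO replicate 2, KO replicate 3 or CSH replicate 2; Icam1 lost it without KO replicate 1 or CSH replicate 1 as well. Cx3cr1, the fractalkine receptor, was not called (-1.16, adjusted p = 0.0618): it read 9.69, 9.95 and 9.33 against 10.45, 11.67 and 10.33, with CSH replicate 2 far above the others. It was called without CSH replicate 4 (-1.40, adjusted p = 0.0432, limma).

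Of all genes tested 1.9 percent were called, a share at which lists this small can hold no call. No member was called of the unfolded protein response (21 tested), mitosis and cytokinesis (41), DNA replication (36), class II presentation (6) or oxidative phosphorylation (26) lists. The last holds nuclear-encoded genes only; ND3, the mitochondrially encoded complex I subunit named among the lower genes (-0.59), is not in it. For the unfolded protein response the median difference was 0.12, with 18 differences positive and 2 negative. In 9 of its 21 genes the KO arrays all lay above the CSH arrays, which was so for 9.72 percent of all genes tested. For mitosis the median difference was 0.20 and 38 of 41 differences were positive, yet in no gene did the KO arrays all lie above the CSH arrays. Their mean was 8.95, 8.97 and 8.76 in KO medium and 8.94, 8.75 and 8.35 in CSH medium. Among 8 tested dendritic cell markers Itgax and Bst2 were lower, and among 14 macrophage markers Cebpa, a myeloid transcription factor (-0.53, adjusted p = 0.0245, limma), and Cd68 (-0.19, adjusted p = 0.0383) were lower; none of these 4 kept its call without KO replicate 3.

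The remaining lists held few calls. Of all genes tested 1.9 percent were called, a share at which small lists can hold none. Osbp2 was the 1 called of 9 oxysterol-binding proteins, whose median was 0.20, and Fosl2 the 1 of 11 AP-1 factors. Among matrix proteases and heparanase, Adamts1, a secreted protease was higher and Hpse lower (1 and 1 of 15), and of 14 integrins and ligands Itgax and Icam1 were lower. Ddit4, a stress-induced inhibitor of mTORC1, was higher by 0.63 and was the 1 called of 29 glycolysis and hypoxia genes, a call lost in a fit of the 6 arrays alone (adjusted p = 0.0581, limma). With Slc7a11, the cystine transporter (0.41, adjusted p = 0.0482, limma), it made 2 of 35 ATF4 targets. Slc7a11 and Ephx1 were the calls of 18 NRF2 genes, Ptgs2 and Pla2g15 those of 14 prostaglandin genes, and Pdpn, Tlr4 and Cd180 those of 21 Toll-like receptor and lectin genes. Of 28 MYC target and ribosome biogenesis genes, Odc1 and Myc were called higher, whereas 23 differences were negative and the median was -0.097. In 7 of the 28 the KO arrays all lay below the CSH arrays, which was so for 12.1 percent of all genes tested. Lipa, the lysosomal acid lipase, was the 1 lower call of 22 lysosomal genes (-0.51) and Icam1 the 1 of 22 NF-kB genes. The calls of Adamts1, Slc7a11 and Lipa were lost on median centring and also without KO replicate 1, KO replicate 3 or CSH replicate 2; Adamts1 and Slc7a11 lost theirs without KO replicate 2 or CSH replicate 1 too, and Slc7a11 without CSH replicate 4. No marker of osteoclasts (8 tested), neutrophils (5), epithelial cells (4) or lymphocytes (1) was called. The summed signal of dendritic cell markers was 85.4 to 85.5 in KO medium and 86.4 to 87.6 in CSH medium, and that of neutrophil markers 56.9 to 57.4 and 56.1 to 56.6. The 5 tested neutrophil markers differed by 0.013 to 0.76, with a median of 0.043. The largest was S100a8, which was not called (adjusted p = 0.0946, limma). The 8 tested dendritic cell markers differed by -1.133 (Itgax) to 0.38, with a median of -0.053. The part of such cells in the differences was not tested.

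**Figure D4:**
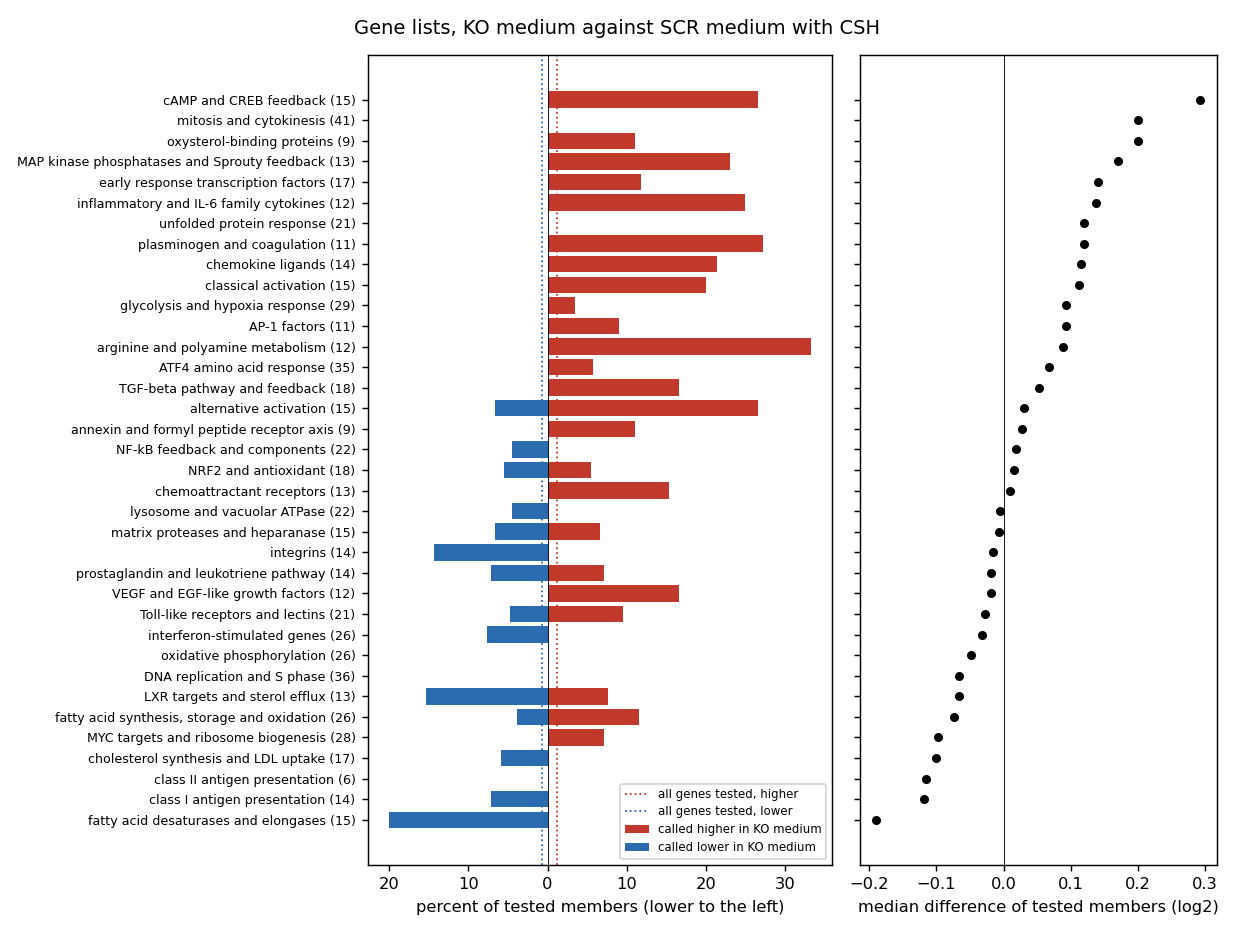
For 36 gene lists, ordered by median difference and with the number of tested members in brackets, the left panel gives the percent of tested members called higher (red) or lower (blue) in KO medium and the right panel the median log2 difference. Dotted lines mark the 1.21 percent higher and 0.695 percent lower of all genes tested; cAMP and CREB feedback is at the top with a median of 0.29 and the desaturases at the bottom with -0.19.

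The KO and CSH media were then set against the response to SCR medium, which shares no array with this comparison though its spread enters the same fit. SCR medium was called higher than normal medium for 3504 genes (19.3 percent) and lower for 2865 (15.8 percent). Of the 219 genes called higher in KO than CSH medium, 170 (77.6%) were also called higher in SCR medium, which is 4.85% of those 3504 genes. A further 10 were lower in SCR medium and 39 were not called. Of the 126 called lower in KO medium, 89 (70.6%) were also lower in SCR medium, 3.11% of the 2865, with 6 higher and 31 not called.

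The share was not equally steady in both directions. With each array left out in turn it ran from 74.9% to 86.2% for the higher genes. For the lower genes it ran from 42.9% without KO replicate 3 to 87.5% without CSH replicate 4. Over all 18119 genes the differences of the 2 comparisons correlated with Pearson's r of 0.398 and Spearman's rho of 0.306, a description across genes, which are not independent replicates. The median difference between KO and CSH medium was -0.342 for the 34 genes that lay lower by 2 or more on the log2 scale in SCR than in normal medium, -0.003 for the 8521 genes that lay between 0 and 0.5 higher, and 0.433 for the 33 genes that lay more than 2 higher.

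**Figure D5:**
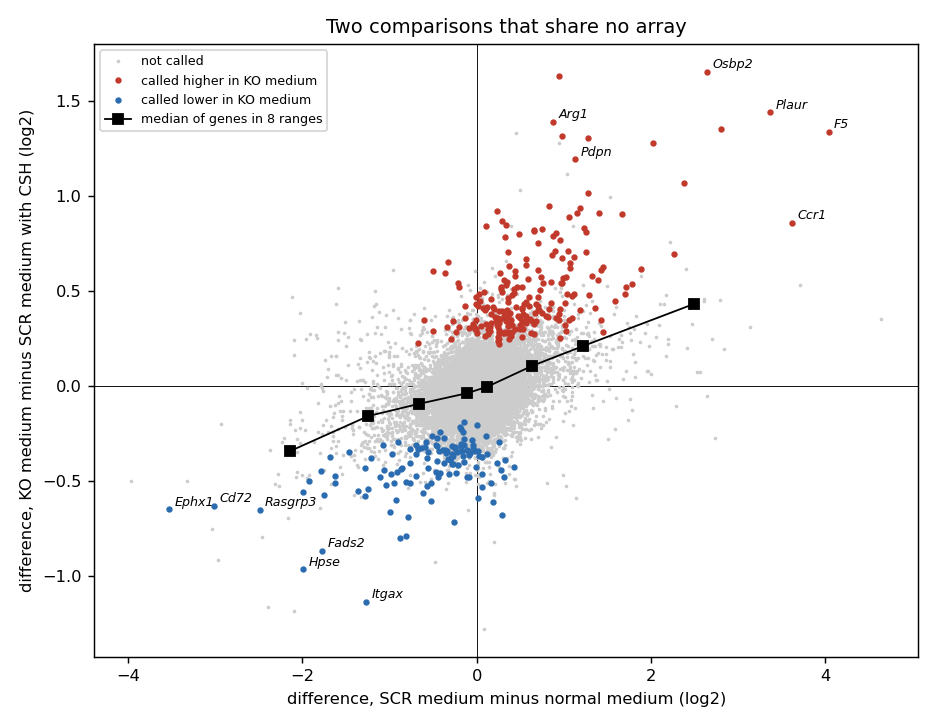
Log2 difference between KO and CSH medium against that between SCR and normal medium for 18119 genes, red and blue marking genes called higher and lower in KO medium. The black line joins the medians of genes in 8 ranges of the horizontal axis, which climb from -0.342 to 0.433.

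KO and CSH medium were each also set against SCR medium in the same fit; both differences use the SCR arrays and are not independent, and the 6 genes given were chosen after their values were seen. Plaur differed by 1.42 in KO medium (adjusted p = 0.000311, limma) and by -0.023 in CSH medium (adjusted p = 0.992), and Pdpn by 1.23 (adjusted p = 1.37e-05) and 0.04 (adjusted p = 0.976). Cd180, one of the lower genes, differed by -0.61 in KO medium (adjusted p = 0.0323, limma) and by -0.04 in CSH medium (adjusted p = 0.983). For these 3 genes the difference of KO from SCR medium passed and that of CSH medium did not. Btg1 differed by 0.57 and -0.74 (adjusted p = 0.0951 and 0.206, limma), Fads2 by -0.25 and 0.62 (adjusted p = 0.98 and 0.619), and Slco4a1 by -0.16 and 0.64 (adjusted p = 0.995 and 0.619). For these 3 neither difference from SCR medium passed, so their values do not show which of the media lay away from it.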

How the data were processed

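The deposited values are log2 signals that the authors computed by RMA. The submitters' processing notes name Affymetrix Expression Console and mm10; software versions were not given in the sources used here. RMA puts arrays on a common scale, which hides a change in total RNA and compresses dim genes. Of 65528 probe sets, 31018 had 1 gene symbol on the platform table, 1478 several and 33032 none; 24506 of 25081 with an Entrez number matched the RefSeq table of GRCm38.p6. The probe set with the highest mean stood for each of 439 genes with several. Genes above the array median of all probe sets in at least 3 arrays were tested, 18119 of 30464. limma 3.58.1 in R 4.3.3 fitted group alone over all 12 arrays, so that 8 residual degrees of freedom were pooled (median residual SD 0.096), with eBayes using an intensity trend; the step was tested on simulated data. SEs and 95% intervals come from that fit. No 2 arrays were duplicates. Precision is limited by 3 arrays per group.

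Named genes are the 15 largest called differences in each direction whose arrays do not overlap, for each list described, at most 4 members in order of p, and 10 genes given whatever their values; predicted genes, clones, microRNAs, small nucleolar RNAs and pseudogenes (72 of the 345 calls) were counted, not named. The comparison, the 36 functional and 7 marker lists and the motifs were chosen with earlier results of these data known. Lists carry no test. Fpr1, Fpr2 and Retnla were not named on the platform table. Plots used matplotlib 3.10.9 under Python 3.11.15.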

Additional observations from a re-analysis of the deposited data

How the results depend on the processing

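The 345 calls (219 higher, 126 lower in KO medium) became 210 (141, 69) with no filter on low values, 574 (387, 187) after quantile normalization, 154 (120, 34) after median centring, 654 (368, 286) with array weights, 162 (107, 55) from the 6 arrays alone and 528 (290, 238) over all probe sets one by one. At other thresholds they became 80 (70, 10) at an adjusted p below 0.01, 631 (363, 268) below 0.1, and 27 (27, 0) with limma's treat at a fold of at least 1.2; the 0 lower calls there compare with 2849 genes of either direction at an unadjusted p below 0.05. With 1 array left out the counts ran from 107 to 373, the higher from 82 to 231 and the lower from 25 to 142. The share of higher genes also higher in SCR medium ran from 74.9% to 86.2%, and that of lower genes also lower from 42.9% to 87.5%. A stricter filter, eBayes without a trend and the mean of a gene's probe sets kept the 3 counts within 1.5 times. Of 72 named genes called, 32 kept their call in each of 22 alternatives, and none of the 72 changed direction. Of the 89 named genes not called, 23 were called in at least 1 alternative. Some of the 89 changed direction, such as Tnf, negative with all arrays and 0.072 without CSH replicate 2. Without KO replicate 3, 33 of the 72 lost their call (12 higher, 21 lower), and without CSH replicate 2, 34 (13 and 21).

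Replicate numbers 1 and 2 are shared by the KO and CSH arrays. The deviations of same-numbered arrays correlated at 0.211 and 0.25, but over the whole series not every same-numbered pair exceeded 0.1, and this comparison holds only 2 such pairs, so whether the numbers pair the samples is not settled; they are treated as sharing only a number. With the number as a fixed replicate block 214 genes were called (121 higher, 93 lower), 180 of them among the 345, and 21 of the 72 named calls were lost (13 higher, 8 lower); as a random block 413 genes were called.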
